A study of Mus musculus with 3 samples.

Results

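The genes described here are the mouse Zfp genes, whose symbols consist of Zfp and a number, in cultured adult mouse ventricular cardiomyocytes (ACMs). Members were all protein-coding genes with such a symbol and a mean of at least 100 counts over the 3 libraries, so they were selected on a measured value, the level averaged over all conditions. This gave 202 members of 370 protein-coding numbered Zfp genes, in a table of 56748 genes. Just outside the threshold lay Zfp764, Zfp566 and Zfp189, with mean counts of 97.3, 98.3 and 98.7, and just inside lay Zfp949, Zfp420 and Zfp959, with 101, 102 and 103. The lowest count of any member in any library was 44, all 202 members passed the minimum for comparison in every pair of libraries, and 25 had under 100 counts in at least 1 library (16 of them in the OSM library).

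ACMs were isolated from wild-type male and female mice of 8 to 10 weeks, plated for 3 to 4 h and treated in serum-free medium for 16 h. The treatments were vehicle (0.1% BSA), 10 ng/mL human interleukin-6 (IL-6) or 10 ng/mL mouse oncostatin-M (OSM), and all 3 cultures shared the same medium with BDM, a contraction inhibitor. The IL-6 arm is known from the sample labels. RNA of each condition was pooled before sequencing, so every condition is 1 library and no difference below has a replicate check. OSM and IL-6 are cytokines of the family that signals through gp130, and the experiment asked which transcripts the cytokine moves in cardiomyocytes.

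The libraries held 24939980 counts with vehicle, 26362446 with IL-6 and 30773001 with OSM. The 7 cardiomyocyte markers were all detected, at a summed level of 8627, 8904 and 11111 fpkm with vehicle, IL-6 and OSM, and the labelled cell type held. They did not all rise with OSM, since 3 of the 7, Myh6, Pln and Ryr2, lay below vehicle. Ryr2 had 31.0, 30.2 and 10.8 fpkm. The T cell markers Cd3e, Cd3g and Cd3d were at 0 with vehicle and IL-6 and summed to 0.0738 fpkm with OSM. The 5 fibroblast markers summed to 0.604, 0.523 and 0.881 fpkm, with Col1a1 and Tcf21 at 0 in at least 1 library, the 5 endothelial markers to 5.92, 6.06 and 6.46 fpkm and the 4 smooth muscle and pericyte markers to 13.1 fpkm with vehicle, with all 4 detected in each library. The 5 macrophage markers summed to 13.8, 14.3 and 39.9 fpkm, with C1qa at 0 in all 3. Cd68 alone made most of this sum, with 382, 448 and 1419 counts. Lyz2, at 13, 4 and 31 counts, was also highest with OSM. Csf1r had 187, 166 and 209 and Adgre1 had 8, 0 and 6 counts. The share of counts from mitochondrially encoded genes was 17.4%, 16.1% and 13.6%. The part of these values in the results below was not tested. Fewer cells of a type and less RNA per cell cannot be told apart in bulk RNA.

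Most Zfp genes encode proteins with tandem C2H2 fingers, in which pairs of cysteines and histidines hold a zinc ion and each finger reads a few bases of DNA. Many of these proteins also carry a KRAB box at the amino end, which recruits the corepressor Trim28 (KAP1) and, with it, the histone methyltransferase Setdb1 to form heterochromatin, in particular on retroelements. KRAB zinc finger genes arose by repeated tandem duplication and lie in clusters of close relatives. The symbol also covers proteins of other kinds, among them Zfp36 (tristetraprolin), whose CCCH fingers bind AU-rich elements of mRNAs and start their decay, and proteins that bind double-stranded RNA, ribosomes or chromatin regulators.

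The members were sorted by the fingers in the translated coding sequence of their GENCODE M39 canonical transcript, which was found for all 202. A KRAB A box together with C2H2 fingers was present in 96 members, with a median of 12 fingers (2 to 23). Another 87 members had 3 or more C2H2 fingers without the box (median 9, at most 36), 14 had 1 or 2 fingers, and in 5 no C2H2 finger was matched. The box was taken as present at 7 or more of its 9 fixed positions. All 9 were matched by 72 members, exactly 6 by 0 and 5 or fewer by 106. A box that differs at more positions would be missed, so members without the box are those without this match. The box is printed for the 3 KRAB members that were lower beyond 2-fold with OSM and for Zfp954, one of the highest, because these genes share the feature and differ in response. The coding strand is written from 5′ to 3′ with the codons of the 9 fixed positions in capitals.

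Zfp971 (chr2:177673093-177673149, plus strand, exon 2 of 4): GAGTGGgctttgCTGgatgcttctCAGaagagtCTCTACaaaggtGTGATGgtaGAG
Zfp799 (chr17:33041073-33041129, minus strand, exon 2 of 4): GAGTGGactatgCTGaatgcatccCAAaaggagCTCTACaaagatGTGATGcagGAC
Zfp267 (chr3:36213716-36213772, plus strand, exon 2 of 4): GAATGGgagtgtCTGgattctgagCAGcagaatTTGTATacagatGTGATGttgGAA
Zfp954 (chr7:7120810-7120866, minus strand, exon 3 of 5): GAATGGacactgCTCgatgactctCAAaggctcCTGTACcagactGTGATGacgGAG

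All coordinates of these stretches are of GRCm39. Of the 57 bases, 43 were identical between Zfp971 and Zfp799, 38 between Zfp971 and Zfp267 and 37 between Zfp971 and Zfp954. Zfp799 shared 33 with Zfp267 and 37 with Zfp954, and Zfp267 shared 28 with Zfp954. Any relation of the box to the fold changes was not tested. Zfp971 encodes 12 C2H2 fingers, and 10 copies of the conserved linker between fingers are present in its protein. One such finger is shown with its linker, with the codons of the zinc-holding cysteines and histidines in capitals, beside a finger of Zfp346, a protein that binds double-stranded RNA, and the CCCH pair of Zfp36. Zfp971 and Zfp346 were the members with the lowest, and Zfp36 the member with the highest, log2 fold change with OSM.

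Zfp971 finger and linker (chr2:177674799-177674876, plus strand, exon 4 of 4): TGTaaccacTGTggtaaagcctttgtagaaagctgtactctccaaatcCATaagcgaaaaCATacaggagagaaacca
Zfp346 finger (chr13:55260896-55261502, plus strand, joined from exons 2 and 3 of 7): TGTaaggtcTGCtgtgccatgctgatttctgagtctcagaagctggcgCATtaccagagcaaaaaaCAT
Zfp36 fingers (chr7:28077469-28077642, minus strand, exon 2 of 2): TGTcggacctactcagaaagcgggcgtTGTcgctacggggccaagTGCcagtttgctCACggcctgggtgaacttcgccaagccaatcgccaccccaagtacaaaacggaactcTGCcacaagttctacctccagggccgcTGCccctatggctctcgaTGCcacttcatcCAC

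With OSM, the members as a group lay below the other genes. Their median log2 fold change against vehicle was -0.27, beside 0.03 for the 9239 other protein-coding genes of the same minimum level and 0.00 for all 15537 compared genes. A log2 fold change here is the ratio of TMM-scaled counts, and its 95% counting interval, given in brackets throughout, covers counting error only. Of the members, 142 (70.3%) lay below 0, against 48.0% of the other protein-coding genes. The whole interval lay below 0 for 112 members and above 0 for 33, where 33.1% and 33.4% of all compared genes did so. Of the other protein-coding genes of the same minimum level, 37.7% lay wholly below 0 and 41.2% wholly above. The middle of the distribution ran from -0.65 to 0.06 (25th to 75th percentile) in the members and from -0.38 to 0.37 in the other genes.

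The shift was spread over many genes with modest values and not over many large changes. Genes were called where the entire interval exceeded a 2-fold change in either direction. By that rule 1 member was higher, Zfp36, where 3.74% of all compared genes were, and 5 were lower, Zfp971, Zfp346, Zfp799, Zfp267 and Zfp609, where 5.43% were. These are 0.495% and 2.48% of the members, beside 2.66% and 3.86% of the other protein-coding genes at this level. With library totals in place of TMM factors, 1 member was higher and 12 were lower. Library totals moved the median of all compared genes from 0.00 to -0.06, and the share of all genes called with them was not computed. Every value compares these libraries and not the conditions, since no library was repeated. The median level of the members was 2.49 fpkm with vehicle, 2.49 with IL-6 and 1.99 with OSM. Together the members took 0.514%, 0.518% and 0.394% of the library counts. Zfp106 alone made up 21.9% of the members' counts with vehicle.

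Log2 fold changes with OSM fell with gene length across genes (Spearman's rho -0.35 over the 202 members and -0.52 over the other protein-coding genes). The points share 2 libraries and genes are not independent replicates. The members were somewhat longer than the other genes, with a median gene length of 5208.5 against 4699 bases, so each was set against the protein-coding genes outside the members whose length lay within 10% of its own (180 to 1153 genes for each member). The median difference from these was -0.23, and 138 members lay below. The whole interval of 100 members lay under the median of the genes of similar length, and that of 39 lay above. The 51 shortest members, of 1308 to 3523 bases, had a median of -0.01 where genes of similar length had 0.26. The next 50, of up to 5205 bases, had -0.22 against 0.05, and the 50 after them, of up to 7194 bases, had -0.43 against -0.09. The 51 longest, of 7217 to 15839 bases, had -0.55 against -0.33. The members thus lay below their length peers in each of these 4 ranges. They were also less abundant, with a median mean count of 313 against 897. With peers alike in both length and count, the latter within 2-fold, the median difference was -0.23.

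**Figure D1:**
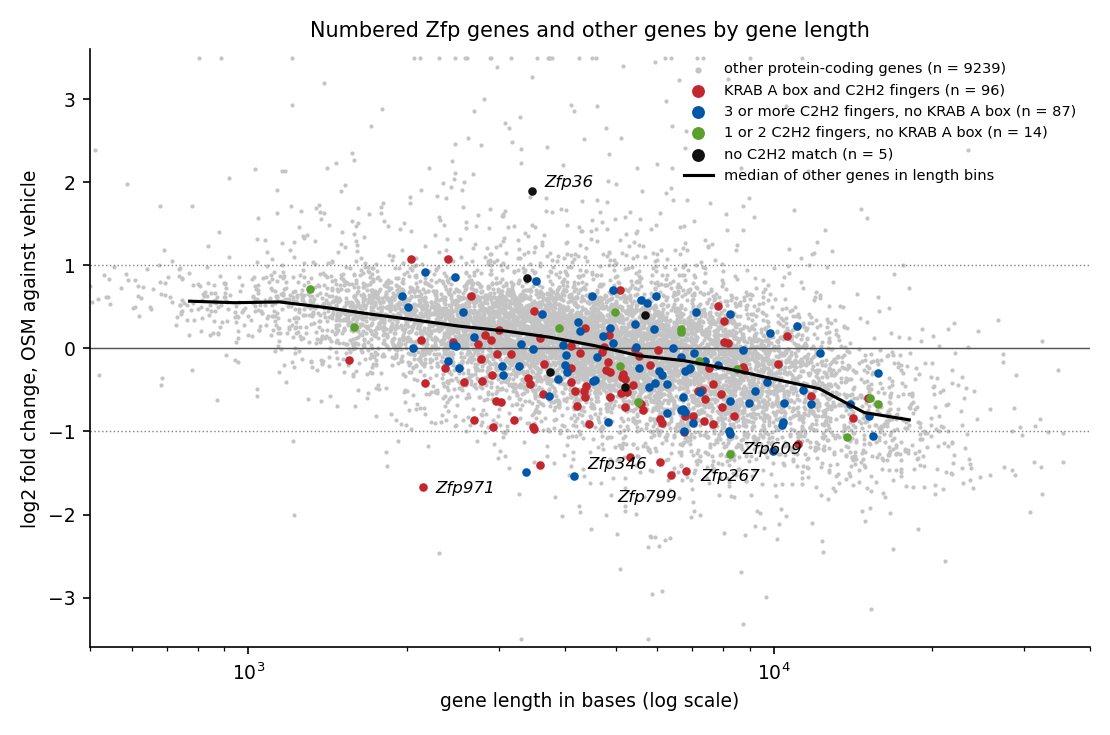
Log2 fold change of OSM against vehicle (y axis) by gene length in bases (x axis, log scale) for the 202 numbered Zfp genes, coloured by finger class, and 9239 other protein-coding genes in grey, with those beyond the y axis drawn at its edge. The black line is the median of the other genes in bins of length, the dotted lines mark 2-fold, and the called members are named: most members lie below the line, and Zfp36, at 1.90, stands far above it.

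Among the finger classes of the members, the KRAB members lay lowest. Their median log2 fold change with OSM was -0.41, 75 of 96 lay below 0, and the median difference from genes of similar length was -0.37, with 76 of 96 below. For the 87 members with 3 or more C2H2 fingers and no box, the median was -0.21 and the difference -0.15, with 55 below. The 14 members with 1 or 2 fingers had a median of -0.19 and a difference of 0.08. None of the KRAB members was called higher and 3 were called lower, where 5.43% of all compared genes were. The difference between the classes was not tested.

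Base composition differed between the classes as well. The median GC content of the canonical transcript was 42.1% in the KRAB members and 50.8% in the members with fingers alone, against 50.2% in the other protein-coding genes. Across the members, the log2 fold change with OSM rose with GC content (Spearman's rho 0.38). With peers alike in length and within 2 percentage points of GC content, the median difference of the KRAB members was -0.23 and that of the members with fingers alone -0.14, so the value of the KRAB members was smaller by over 1.5 times under this match. With it, 13 members had fewer than 20 peers. Stretches of at least 150 bases at 97% identity in transcripts of other genes, here called copies, covered over 10% of the transcript in 59 members. The search left out only the member's own gene, so a copy can also come from a gene that overlaps the member. Zfp276, for example, has no KRAB box, overlaps Vps9d1 and Fanca and had 48.7% covered. Without the 59 members, the difference of the KRAB members was -0.32.

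Zinc finger genes under other symbols were placed beside them. The 26 protein-coding genes outside the members that had a KRAB A box and C2H2 fingers had a median log2 fold change of -0.52 with OSM, 22 of them below 0, and a median difference from genes of similar length of -0.54. The 109 genes with 3 or more C2H2 fingers, no box and other symbols had a median of -0.33. By family, the medians were -0.36 for 35 Zbtb genes, whose products pair fingers with a BTB domain, -0.27 for 15 Zscan and Zkscan genes, 0.10 for 12 Klf genes and -0.26 for 16 Zc3h genes. The 18 genes whose symbol is Zfp with a letter had a median of -0.52 and the only Znf gene at this level had -0.52. The 18 Zdhhc genes, which encode palmitoyltransferases with a zinc finger of another kind, had a median of -0.01. Against genes of similar length, the median difference was -0.20 for the 109 genes, -0.21 for Zbtb and -0.33 for Zscan and Zkscan. It was 0.27 for Klf, -0.25 for Zc3h, -0.10 for Zdhhc and -0.27 for both Zfp with a letter and the Znf gene. The families were picked by symbol and can share genes with the 26 and the 109. Low medians with OSM were thus also found in C2H2 genes under other symbols.

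**Figure D2:**
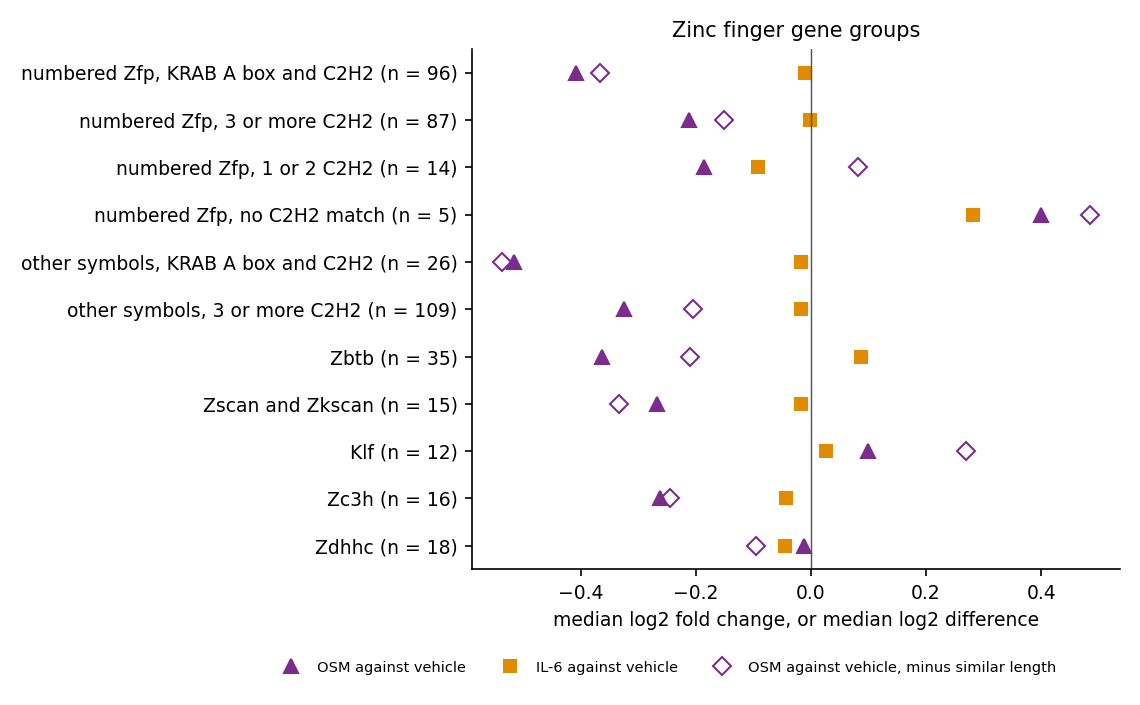
Median log2 fold change of zinc finger gene groups for OSM against vehicle (filled triangles) and IL-6 against vehicle (squares), with the median difference of OSM against vehicle from genes of similar length (open diamonds). The numbers of genes are in brackets and no error is drawn, since each condition is 1 library: among the groups drawn, the OSM medians of both KRAB groups lie furthest left, at -0.41 and -0.52, while their IL-6 medians lie near 0.

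IL-6 gave no such shift. The median log2 fold change of the members against vehicle was -0.01, beside -0.00 for the other protein-coding genes, and the median difference from genes of similar length was -0.00, with 103 of 202 members below. No member was called in either direction (0 higher and 0 lower), where 1.77% and 1.74% of all compared genes were. Those shares include genes with fewer counts, and of the 9239 other protein-coding genes at the level of the members only 3 were called higher and 1 lower (0.0325% and 0.0108%), so 0 members is about the share of genes at this level. The whole interval lay above 0 for 42 members and below 0 for 38, against 19.6% and 19.1% of all compared genes. For the other protein-coding genes at the level of the members, these shares were 20.6% and 20.2%. The KRAB members had a median of -0.01 and the members with fingers alone of -0.00.

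Between the cytokines, OSM against IL-6 gave a median of -0.31 in the members beside 0.03 in the other protein-coding genes, and a median difference from genes of similar length of -0.22, with 136 members below. Here 1 member, Zfp36, was called higher, where 4.24% of all compared genes were. The 5 members called lower were Zfp971, Zfp346, Zfp526, Zfp609 and Zfp397, where 5.42% were. Of the other protein-coding genes at the level of the members, 2.70% and 3.57% were called. This comparison shares the OSM library with that against vehicle, and the IL-6 comparison shares the vehicle library, so the values stand side by side and are not independent.

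**Figure D3:**
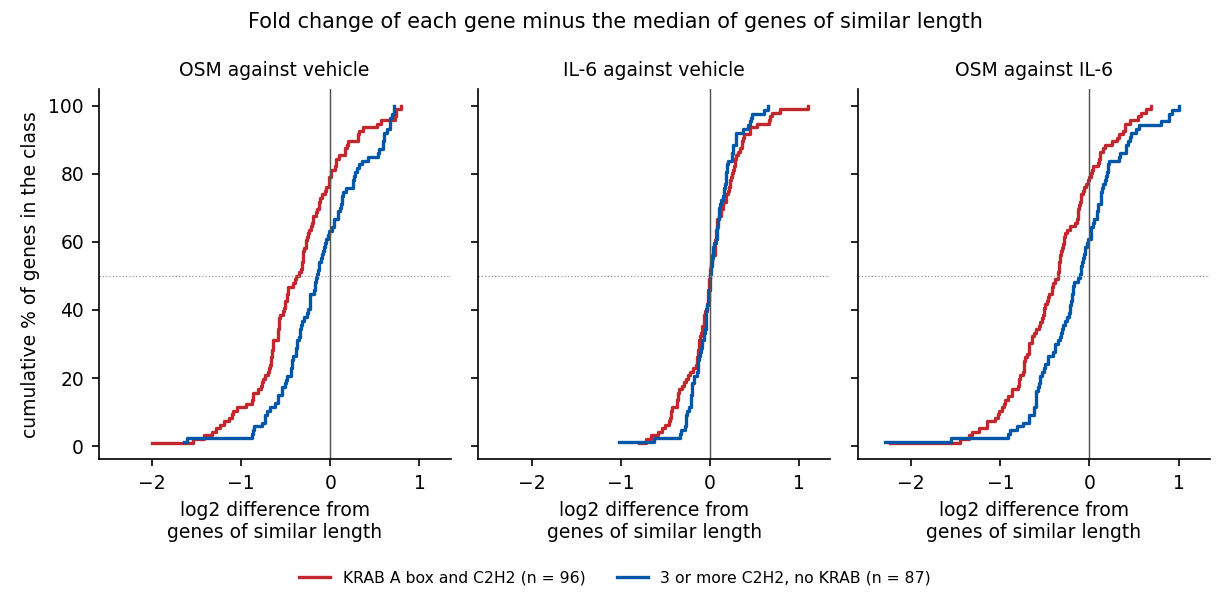
Cumulative share of members (y axis, %) by the log2 difference of their fold change from the median of genes of similar length (x axis), for the 96 KRAB members and the 87 members with 3 or more C2H2 fingers alone, in each comparison of libraries. Both curves cross 50% left of 0 with OSM, at -0.37 and -0.15 against vehicle, and at about 0 with IL-6 against vehicle.

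Among the members that act on RNA, Zfp36 stood apart. Zfp36 (ENSMUSG00000044786, minus strand of chromosome 7, 28076209 to 28079678 in GRCm39) had 733 counts with vehicle, 833 with IL-6 and 3227 with OSM, or 8.35, 8.86 and 31.1 fpkm. Its level with vehicle and IL-6 was alike and that with OSM was 3.72-fold higher than with vehicle. The log2 fold change of 1.90 (1.78 to 2.01) lay above 98.7% of the 972 genes of similar length, whose median was 0.14. Against IL-6 it was 1.81 (1.70 to 1.92), and IL-6 against vehicle gave 0.08 (-0.06 to 0.23). A lncRNA gene, Gm44710, overlaps Zfp36 on the opposite strand and had 22, 13 and 21 counts. Use of the strand in counting is not given in the sources used here.

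Zfp36 is an immediate early gene, and STAT proteins, the factors that gp130 cytokines activate, bind the palindrome TTCNNNGAA. In the RefSeq promoter of Zfp36 (chr7:28379229-28379478 of GRCm38.p6, minus strand, the 250 bases before the start of the gene), this motif occurred 1 time, from 17 to 9 bases before the start, and is written in capitals.

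Zfp36 promoter: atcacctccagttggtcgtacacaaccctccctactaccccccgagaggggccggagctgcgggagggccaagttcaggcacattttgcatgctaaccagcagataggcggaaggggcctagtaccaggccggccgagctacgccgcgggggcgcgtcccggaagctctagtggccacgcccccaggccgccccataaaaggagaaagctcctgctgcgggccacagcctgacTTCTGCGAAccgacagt

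The pattern TTCNNNGAA, with its free middle bases, reads the same on both strands. It was present in the 250 bases before the start in 7.02% of the 32851 RefSeq promoters, and in at least 1 promoter of 8.13% of the 27025 genes that had one. Of the members, 168 had a RefSeq promoter and 23 of these held the motif (13.7%). Their median log2 fold change with OSM was -0.23, beside -0.24 for the members without it. Of the 23, 1 was called higher, Zfp36, and 0 lower, where 3.74% and 5.43% of all compared genes were. A match of letters is not a binding site.

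The family and the partners of Zfp36 were given by a list of 19 CCCH and AU-rich decay genes. Its median log2 fold change with OSM was -0.04, beside 0.00 over all compared genes, with 1 of the 19 called higher and 1 lower, where 3.74% and 5.43% of all compared genes were. The paralogs Zfp36l1 and Zfp36l2 had 660, 750 and 1023 and 214, 186 and 278 counts with vehicle, IL-6 and OSM, log2 fold changes of 0.39 (0.25 to 0.53) and 0.14 (-0.13 to 0.40). Zc3h12a (regnase-1), an endonuclease that also cuts inflammatory mRNAs, rose from 73 to 276 counts (1.68, 1.30 to 2.07) and had 76 with IL-6. Xrn1, the exonuclease that degrades decapped mRNA, fell from 616 to 303 counts (-1.27, -1.47 to -1.06), and Cnot1, the scaffold of the deadenylase complex that Zfp36 recruits, had 3007 and 1810 counts (-0.97, -1.06 to -0.89).

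Of 18 AU-rich transcripts known as Zfp36 targets, 14 had enough counts to be compared. Their median log2 fold change with OSM was 0.59, and 5 of the 14 were called higher and 0 lower, where 3.74% and 5.43% of all compared genes were. Ier3 rose from 2036 to 8997 counts (1.90, 1.83 to 1.97), Fos from 388 to 1282 (1.48, 1.32 to 1.65) and Ptgs2, which encodes cyclooxygenase-2, from 52 to 798 (3.70, 3.29 to 4.13). Il6 and Ccl2 were the others. Myc, with 2078 and 3602 counts (0.55, 0.47 to 0.63), and Hif1a, with 1871 and 4317 (0.96, 0.89 to 1.04), were not called. Cdkn1a had 7925 and 14411 counts (0.62, 0.58 to 0.66). The other direction was also found, with 4 of the 14 below 0. Vegfa had 3152 and 3089 counts (-0.27, -0.34 to -0.20), and the intervals of Lif (-1.09, -2.37 to 0.10), Cxcl2 (-1.05, -2.51 to 0.30) and Pim1 (-0.07, -0.26 to 0.11) held 0.

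The other RNA-related members divided in direction. The list of 12 genes had 11 members, of which Zfp36 was called higher and Zfp346 lower, with a median of 0.20. Of all compared genes 3.74% were called higher and 5.43% lower, which holds for the counts of every list that follows. Zfp346 (ENSMUSG00000021481, plus strand of chromosome 13, 55253124 to 55282638), which binds double-stranded RNA, had 1439 counts with vehicle, 1489 with IL-6 and 588 with OSM. Vehicle and IL-6 were alike and OSM was the low library, with a log2 fold change of -1.53 (-1.67 to -1.39) and, against IL-6, of -1.48 (-1.62 to -1.34). Only 0.553% of the 1086 genes of similar length lay below it, and no part of its transcript is copied elsewhere.

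Zfp106, an RNA-binding protein whose loss in mice causes neuromuscular degeneration, was by far the most abundant member. It had 28039, 29731 and 17895 counts with vehicle, IL-6 and OSM, or 106, 105 and 57.5 fpkm, and OSM was again the low library (-0.89, -0.92 to -0.86). Its interval lay within 2-fold, and 17.5% of genes of similar length lay below it. Copies at 97% identity cover 19.8% of its transcript. The next most abundant members were Zfp706, with 18.8, 18.5 and 25.5 fpkm, and Zfp651, with 21.2, 20.9 and 20.5 fpkm. Zfp706 was the higher of these with OSM and Zfp651 with vehicle and IL-6.

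Of the 11 members of this list, 5 lay below 0 with OSM and 6 above. Zfp598, the ubiquitin ligase that senses collided ribosomes, had 1418, 1432 and 1990 counts (0.25, 0.15 to 0.35). Zfp622, which acts in the maturation of the large ribosomal subunit, had 1207, 1359 and 1936 (0.44, 0.34 to 0.54), and Zfp706, a repressor of translation in stem cells, had 2364, 2491 and 3794 (0.44, 0.37 to 0.52). In these 3, picked from the list for their role, OSM was the highest library, and none was called. Zfp207, a spindle assembly factor that binds Bub3, had 2123, 1845 and 2874 counts (0.20, 0.11 to 0.28). Zfp638, a nuclear RNA-binding protein, had 1623, 1492 and 1210 (-0.67, -0.77 to -0.56), at a gene length of 15810 bases whose peers had a lower median still (difference 0.14). Zfp318 had 821, 877 and 464 counts (-1.06, -1.23 to -0.90). The interval of Zfp326, with 420, 461 and 445 counts, held 0.

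The members known from retroelement silencing and imprinting all lay below 0 with OSM. Of the 15 genes listed, 3 were members, and 0 were called. Zfp568, which silences a placental Igf2 transcript in the embryo, had 1591, 1581 and 1030 counts with vehicle, IL-6 and OSM (-0.87, -0.98 to -0.75). Zfp809, which starts the silencing of endogenous retroviruses, had 581, 714 and 442 (-0.64, -0.82 to -0.46), and Zfp445, which maintains imprinting, had 1549, 1507 and 1198 (-0.61, -0.72 to -0.50). For each of these 3 genes OSM was the lowest library. Their differences from genes of similar length were -0.67, -0.88 and -0.42.

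A list of KRAB corepressor genes together with general heterochromatin genes had a median near that of the members. Of 22 listed, all 22 were compared, with a median of -0.27, 20 below 0 and 0 called in either direction. Trim28 itself had 3790, 4046 and 5383 counts and lay above 0 (0.26, 0.20 to 0.32), while Setdb1 had 491, 504 and 487 (-0.25, -0.44 to -0.07). Tasor, a subunit of the HUSH silencing complex, had 370, 458 and 212 counts (-1.05, -1.30 to -0.80), and its partner Mphosph8 had 628, 640 and 568 (-0.39, -0.55 to -0.22). The heterochromatin proteins Cbx3 and Cbx5 had log2 fold changes of -0.53 (-0.69 to -0.37) and -0.56 (-0.67 to -0.46). Over the 20 with at least 100 counts on average, the median difference from genes of similar length was -0.14, with 15 below.

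Among activators and developmental regulators, 15 of 18 listed genes were members, with a median of -0.25, 9 below 0, 0 higher and 1 lower. The gene called lower was Zfp609 (ENSMUSG00000040524, minus strand of chromosome 9, 65599673 to 65734846), a transcriptional regulator that associates with the cohesin loader Nipbl. It had 1149, 1150 and 562 counts with vehicle, IL-6 and OSM (-1.27, -1.42 to -1.13), again with OSM as the low library, and 5.47% of genes of similar length lay below it. Zfp148 (ZBP-89), a factor of GC-rich promoters, had 1387, 1464 and 866 counts (-0.92, -1.05 to -0.80). Zfp521, a regulator of progenitor cells, had 222, 239 and 141 (-0.90, -1.21 to -0.59). By contrast, Zfp703, a corepressor of the NET family, had 456, 594 and 969 counts (0.85, 0.68 to 1.01) and lay 0.69 above its length peers, and Zfp655 had 970, 1112 and 1713 (0.58, 0.46 to 0.69). Zfp644 had 1122, 1079 and 835 counts (-0.67, -0.80 to -0.54) but lay at the median of its long peers (difference -0.02), whereas Zfp516, with 365, 461 and 278 (-0.63, -0.86 to -0.41), had a difference of -0.38. Zfp281 stood out with IL-6, with 309, 453 and 383 counts. The intervals of Zfp143, an activator of snRNA and many other promoters, with 333, 378 and 391 counts, and of Zfp384, with 921, 952 and 1089, held 0. Zfp667 (Mipu1), which was first described as a gene of ischaemic preconditioning in the heart, had 161, 168 and 192 counts (0.01, -0.30 to 0.32).

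All 5 members of the list of ubiquitin, SUMO and genome maintenance genes lay below 0 with OSM, and 0 were called. Zfp91, an atypical ubiquitin ligase, was the most abundant, with 3500, 3501 and 2906 counts (-0.51, -0.58 to -0.44), but copies cover 36.3% of its transcript. Zfp451, a SUMO ligase, had 553, 625 and 534 (-0.29, -0.47 to -0.12) and lay 0.53 above the low median of its length peers. Zfp365 had 103, 191 and 88 counts, and here IL-6 was the high library (0.79, 0.44 to 1.15, against vehicle).

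Of the KRAB members with the lowest log2 fold changes, 3 were called lower. Zfp971 (ENSMUSG00000074519, plus strand of chromosome 2, 177665077 to 177675815), whose box and finger are printed above, had 199, 252 and 74 counts with vehicle, IL-6 and OSM, or 3.67, 4.34 and 1.16 fpkm. Its log2 fold change of -1.67 (-2.07 to -1.28) was the lowest of the 202 members, and its length peers had a median of 0.33, but copies cover 31.9% of its transcript. Zfp799 (ENSMUSG00000095253) had 166, 132 and 68 counts (-1.53, -1.96 to -1.11), and Zfp267 (ENSMUSG00000033883) had 197, 162 and 84 (-1.47, -1.86 to -1.10), with no copied sequence. In each, OSM was the lowest library, and for Zfp799 and Zfp267 IL-6 lay below vehicle (-0.43, -0.77 to -0.09, and -0.38, -0.69 to -0.07). Zfp268, Zfp612 and Zfp626, also KRAB genes, had log2 fold changes of -1.41 (-1.83 to -0.99), -1.37 (-1.77 to -0.98) and -1.30 (-1.64 to -0.98) and missed the call by little. Zfp526, with fingers alone, had 104, 176 and 44 counts, and its fold change of -1.48 (-2.03 to -0.96) against vehicle became a call against IL-6 (-2.14).

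At the other end, Zfp1 and Zfp954, both with a KRAB box, followed Zfp36. Zfp954 had 239, 280 and 595 counts (1.07, 0.86 to 1.30) and Zfp1 had 138, 180 and 345 (1.08, 0.79 to 1.38). In both OSM was the high library, the point estimate lay just over 2-fold and the interval held 2-fold. Zfp511, with 127, 190 and 285 counts (0.92, 0.62 to 1.24), and Zfp513, with 250, 303 and 534 (0.85, 0.63 to 1.08), overlap Tubgcp2 and Snx17 on the opposite strand. Copies cover 18.4% and 70.4% of their transcripts and can come from these overlapping genes. Zfp628 had 243, 358 and 504 counts (0.81, 0.59 to 1.04), Zfp428 had 139, 137 and 270 (0.72, 0.42 to 1.02), Zfp560 had 158, 213 and 303 (0.70, 0.42 to 0.98) and Zfp653 had 156, 156 and 299 (0.70, 0.41 to 0.99).

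With IL-6, the highest member was the KRAB gene Zfp235, with 94 counts with vehicle, 215 with IL-6 and 110 with OSM. Its log2 fold change with IL-6 was 1.09 (0.74 to 1.46) and with OSM -0.01 (-0.43 to 0.40). Zfp157 had 84, 155 and 83 counts, a log2 fold change with IL-6 of 0.78 (0.39 to 1.18). The lowest was Zfp668, a protein of the DNA damage response, with 214, 113 and 210 counts (-1.02, -1.36 to -0.69), followed by Zfp282, with 352, 215 and 308 (-0.81, -1.06 to -0.56), and Zfp626, with 240, 155 and 115 (-0.73, -1.03 to -0.43). For Zfp235, Zfp157 and Zfp668 the IL-6 library stood apart while vehicle and OSM lay closer to each other, and none of these intervals lay wholly beyond 2-fold. Zfp668 overlaps Zfp646 on the opposite strand.

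**Figure D4:**
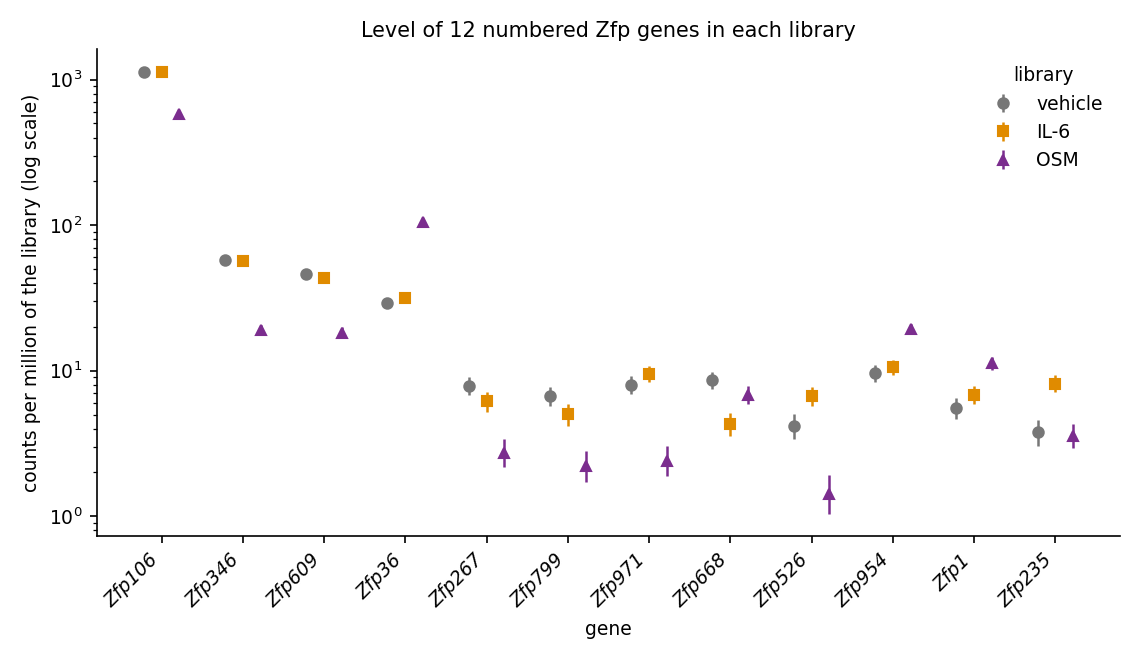
Level of 12 members in each library in counts scaled to the library total (CPM, y axis, log scale), 1 point per library, with 95% Poisson counting intervals, several of which are smaller than the symbols. OSM is the low library for Zfp106, Zfp346, Zfp609, Zfp267, Zfp799, Zfp971 and Zfp526 and the high one for Zfp36, Zfp954 and Zfp1, while Zfp668 and Zfp235 stand apart with IL-6.

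Members lay in groups along the chromosomes, 50 of them on chromosome 7. The group with most members, 12 genes whose starts follow each other within 500000 bases, spans 21229165 to 23086108 on chromosome 17, and all 12 have a KRAB A box. Their median log2 fold change with OSM was -0.37, with 11 below 0, and the median difference from genes of similar length was -0.33. The lowest was Zfp677, with 116, 139 and 71 counts (-0.95, -1.40 to -0.51). Zfp994 had 188, 220 and 148 counts (-0.59, -0.91 to -0.27) and Zfp942 had 207, 264 and 170 (-0.53, -0.83 to -0.23). The exception was Zfp948, with 236, 331 and 432 counts (0.63, 0.40 to 0.87), while the intervals of Zfp52, Zfp758 and Zfp229 held 0. With IL-6 the median of these 12 genes was 0.13 and 2 lay below 0. The IL-6 intervals of Zfp677, Zfp994, Zfp942, Zfp51, Zfp160, Zfp229 and Zfp943 held 0, while that of Zfp944 lay above it (0.06 to 0.69). The medians with OSM and IL-6 thus lay on opposite sides of 0, but many of the IL-6 values lie within counting error. Both medians rest on the same vehicle library.

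A group of 11 members on chromosome 7, from 29467977 to 29869175, had a median of -0.70 with OSM, 10 of them below 0, and a median difference from genes of similar length of -0.65. Zfp568 was among them, and Zfp420 was the exception with 70, 114 and 121 counts (0.55, 0.11 to 0.99). With IL-6 the median of these genes was 0.03. Neighbours did not always share a sign: 5 members on chromosome 6, from 47812595 to 48063527, had a median of 0.12 with OSM, and 8 on chromosome 7, from 126832233 to 127485168, had -0.10 with 4 below 0.

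**Figure D5:**
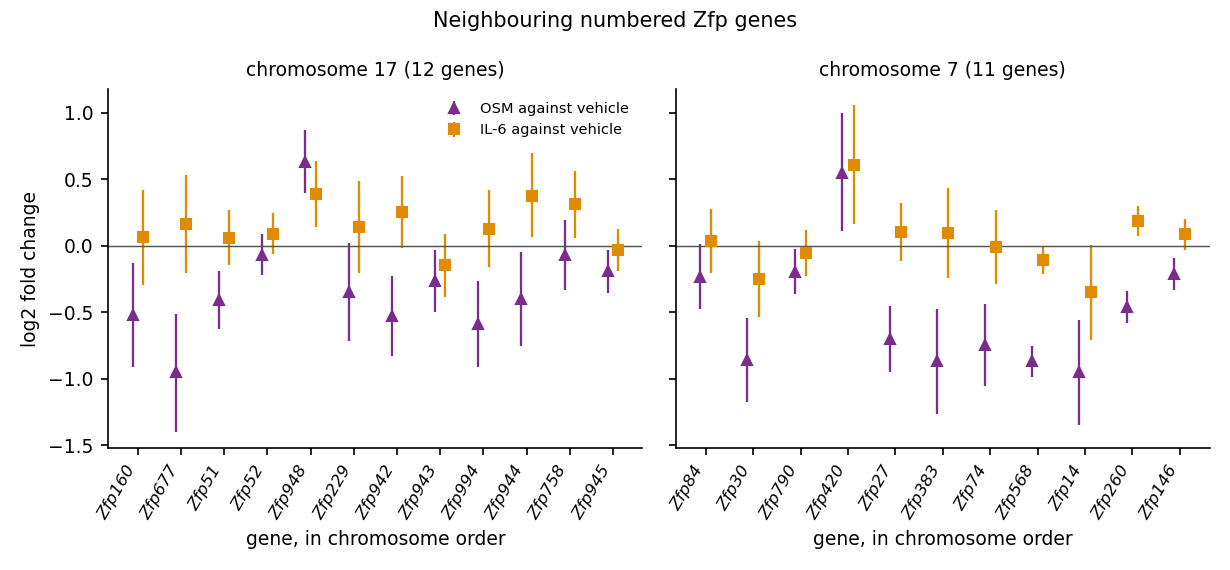
Log2 fold change (y axis) with 95% counting intervals for the members of the 2 largest groups of neighbouring genes, in chromosome order (x axis), for OSM (triangles) and IL-6 (squares) against vehicle. With OSM 11 of 12 genes on chromosome 17 and 10 of 11 on chromosome 7 lie below 0, and Zfp948 and Zfp420 lie above.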

How the data were processed

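RNA of ACMs was sequenced after poly-A selection, in 1 pooled library per condition. Per the labels' processing notes, reads were handled with fastp, HISAT2 2.2.1 and featureCounts 2.0.6 on mm39 (GRCm39), while the paper names another featureCounts release. The authors deposited unnormalized whole-number gene counts, and fpkm that the authors computed from these counts and gene lengths. Strand use is not given in the sources used here, so genes that overlap on opposite strands cannot be told apart. No per-sample column was unmatched (0 columns).

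TMM factors were computed per pair of libraries with edgeR 4.0.16 in R 4.3.3, and comparison was limited to genes reaching 10 counts in the pair. Intervals are 95% Clopper-Pearson intervals of the 2 counts given their sum. They cover counting error only, as amplified reads lacking molecular identifiers can be copies of one molecule. No P-value is given. The calling rule was checked on simulated counts. Protein motifs were counted in GENCODE M39 translations, chosen after the planned protein table proved not to be at hand. Copies were searched with blastn 2.17.0+, leaving out only the member's own gene. Named members were the 10 highest and 10 lowest with OSM, the 3 highest and lowest in the other comparisons, the 10 most abundant, the 10 furthest from their length peers, the members of fixed role lists and of the largest group of neighbours, and the edge of the threshold. Zfp397 was named as a call and Zfp964 and other scarce genes after their values were seen. Not every gene the rule names is reported. Members and lists were chosen with earlier results of these data known. Alternatives were DESeq2 1.42.0 size factors, library totals, fpkm ratios, other minimum counts, a prior count, thinning, other call rules, other length windows and other thresholds of the mean count. Those with GC content, without copied and without overlapping members were added after the data were seen.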

Additional observations from a re-analysis of the deposited data

How the results depend on the processing

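Among the named members that were called, none changed direction under another scaling, minimum count, prior count or thinning. A call lies wholly beyond 2-fold, and library totals moved the median of all compared genes with OSM only to -0.06 against vehicle and -0.08 against IL-6. A change of direction was therefore hardly possible, and its absence says little. Of the values that answer a comparison, 151 stayed as reported and 26 moved, while for single members 1549 stayed and 5 moved. Medians counted as moved at a shift of 0.1 log2 or more. A single member counted as staying where the new value lay within its own counting interval, which leaves little room for a move in members with few counts. The sign of medians and of uncalled members was not checked, so values near 0 may have changed sign. No paired analysis was possible because each condition is 1 library. With OSM against vehicle, 12 members were called lower with library totals in place of TMM factors, 2 at a mean of at least 200 counts and 9 by the edgeR exact test at an assumed BCV of 0.2. Point estimates beyond 2-fold gave 3 higher and 15 lower, intervals beyond 4-fold 0 and 0, intervals beyond no change 33 and 112, and an assumed BCV of 0.4 gave 0 and 0. With IL-6 against vehicle, point estimates gave 1 and 1 and intervals beyond no change 42 and 38. With OSM against IL-6, 3 were called lower after thinning and 3 at a mean of at least 200 counts. There point estimates gave 18 lower, intervals beyond 4-fold 0 and 0, intervals beyond no change 41 and 115, and an assumed BCV of 0.4 gave 0 and 0. For the other scalings and call rules, the share of all compared genes was computed only for intervals beyond no change against vehicle. These shares were 33.4% higher and 33.1% lower with OSM and 19.6% and 19.1% with IL-6. The KRAB difference matched on GC content as well was -0.23 in both OSM comparisons, in place of -0.37 and -0.35, and the cause was not tested. Members with few counts have wide intervals, so a 2-fold change of these could be missed at this depth.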

Other observations

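Numbered Zfp genes under the mean of 100 counts were not part of the comparisons above. Of these 168 genes, 116 reached 10 counts over vehicle and OSM, and 2 were called higher and 6 lower with OSM, where 3.74% and 5.43% of all compared genes were. Zfp108 had 54 counts with vehicle, 12 with IL-6 and 8 with OSM (log2 interval with OSM -4.28 to -1.92). Its level was low with both cytokines. Zfp40 had 63, 47 and 15 counts (-2.31, -3.23 to -1.48), Zfp964 had 82, 40 and 29 (-1.74, -2.41 to -1.11) and Zfp469 had 83, 42 and 27 (-1.86, -2.55 to -1.22). Zfp457 had 25, 29 and 0 counts and Zfp82 had 17, 0 and 0, and the upper limits of their log2 intervals with OSM were -2.89 and -2.29. The genes called higher were Zfp366, with 0, 12 and 18 counts, and Zfp473, which acts in histone mRNA processing, with 0, 1 and 17, and the lower limits of their log2 intervals were 1.89 and 1.80.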
